A study of Mus musculus with 36 samples.

Results

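MHC class II molecules present peptides to CD4+ T cells. The 7 genes described here encode 3 chains of the classical molecules (H2-Aa, H2-Ab1 and H2-Eb1), the invariant chain (Cd74), the transactivator of the whole set (Ciita) and both chains of the peptide editor H2-DM (H2-DMa and H2-DMb1). They were picked by gene symbol, each symbol matched 1 gene, and they are 7 of 56748 genes in the deposited table, of which 37611 had counts in the libraries used. All 7 passed the filter on low counts in every comparison.

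The libraries came from mouse splenic CD4+ T cells lacking heterochromatin protein 1 alpha (HP1a, gene Cbx5) or gamma (HP1g, gene Cbx3), chromatin proteins that bind methylated histone H3 lysine 9, and from WT littermates of each line. HP1a KO cells carried the Cbx5 deletion in every tissue, made with a ubiquitous CMV-cre. HP1g KO cells were floxed at Cbx3 and deleted it under Cd4-cre, that is in T cells from the thymus onwards, and their HP1g WT controls were homozygous for the same floxed allele without Cre. Both lines were on a mixed 129/Sv and C57BL/6 background, with sex-matched mice 6 to 12 weeks old. Each genotype was measured in 3 conditions, with 3 libraries per group. "Naive" cells were isolated from spleen by negative selection. "Tconv" were donor-reactive TCR Vβ6+ cells sorted from the spleens of lethally irradiated C57BL/6 (H-2b) hosts 3 weeks after a graft of C57BL/6 and B6D2F1 (H-2bd) marrow given with the naive cells. "Tconv with Treg" were the same cells from hosts that had also received ex vivo expanded WT regulatory T cells. Host, marrow and regulatory T cells were WT in all grafted groups, so the deletion was carried only by the injected T cells. The sort gate for grafted cells was CD4+, H-2Kb+ and H-2Kd-, and left out host and regulatory T cells by their congenic markers. The H-2 markers do not tell the injected cells from cells derived from the C57BL/6 (H-2b) marrow, whose share was not examined. HP1g KO Tconv with Treg replicate 3 was left out for its quality. That group therefore holds 2 libraries. The labels do not say that replicates came from separate mice, so the p-values measure only the spread between these libraries.

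Class II molecules are built in professional antigen-presenting cells, that is B cells, dendritic cells and macrophages. An alpha and a beta chain pair in the endoplasmic reticulum around the invariant chain CD74, which also blocks the groove. In the endosome proteases such as cathepsin S and cathepsin L trim CD74, and H2-DM then swaps the remaining fragment for antigenic peptide, with H2-O acting as a brake on H2-DM. CIITA does not bind DNA itself. It docks on RFX, CREB1 and NF-Y assembled on the X and Y boxes just upstream of each gene, and its own transcription decides which cells make class II. Mouse CD4+ T cells, unlike activated human ones, are generally held to make little class II, while interferon gamma acting in part through IRF1 switches Ciita on in many other cell types.

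The upstream sequences are shown because CIITA works through boxes in them, and are printed for the 3 classical chains, for H2-Ea (the alpha partner of H2-Eb1) and for H2-Eb2 (the paralog of H2-Eb1). Each line runs from 120 to 11 bases before the canonical start site, 5′ to 3′ on the strand of the gene, in the GRCm39 reference, which is a C57BL/6 and thus H-2b genome. Capitals mark an X box or, for CTGATTGG, a Y box.
H2-Aa: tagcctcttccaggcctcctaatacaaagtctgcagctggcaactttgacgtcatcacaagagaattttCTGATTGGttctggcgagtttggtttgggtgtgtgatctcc
H2-Ab1: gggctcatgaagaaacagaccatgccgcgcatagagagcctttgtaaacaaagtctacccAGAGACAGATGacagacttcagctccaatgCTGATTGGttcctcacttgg
H2-Eb1: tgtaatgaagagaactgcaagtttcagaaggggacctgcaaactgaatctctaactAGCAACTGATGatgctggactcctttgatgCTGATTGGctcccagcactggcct
H2-Ea: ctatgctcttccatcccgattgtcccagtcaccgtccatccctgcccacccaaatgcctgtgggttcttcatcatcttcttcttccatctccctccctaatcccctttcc
H2-Eb2: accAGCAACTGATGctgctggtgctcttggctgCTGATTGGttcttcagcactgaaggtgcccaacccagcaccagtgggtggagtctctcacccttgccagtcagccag

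These windows are chr17:34506808-34506917 (minus strand) for H2-Aa, chr17:34482063-34482172 (plus) for H2-Ab1, chr17:34524693-34524802 (plus) for H2-Eb1, chr17:34563629-34563738 (minus) for H2-Ea and chr17:34544513-34544622 (plus) for H2-Eb2. Matches were searched on both strands in the 250 bases before the start site. The X box was searched as a pattern of 11 letters, some left open, and the Y box as a fixed run of 8 letters. Of the 7 genes, the X box pattern matched in H2-Ab1, H2-Eb1 and H2-DMa, and the Y box in H2-Aa, H2-Ab1 and H2-Eb1. A box spelled otherwise was not counted. H2-Aa without an X box match and H2-DMa without a Y box match are therefore not shown to lack these boxes. In H2-Ab1, H2-Eb1 and H2-Eb2 the boxes were separated by the same 19 bases. The X box had a match in 86 of 21757 protein-coding genes (0.395%), the Y box in 989 (4.55%), and 6 genes (0.0276%) held both: H2-Ab1, H2-Eb1, H2-Eb2, Mterf2, Prpf38b and Reep6. In H2-Aa the Y box lay at -51 to -44, in H2-Ab1 at -30 to -23 and in H2-Eb1 at -34 to -27. Neither box was found in the windows of H2-DMb1, Ciita, Cd74, H2-Ea, H2-DMb2 and H2-Ob, which says only that these letters are not there. The printed H2-Ea window stands before the start annotated in the H-2b genome. The H-2b haplotype is known for a deletion that removes the H2-Ea promoter, so that its mice make no H2-Ea transcript, whereas the H-2d haplotype of B6D2F1 marrow has an intact gene.

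Libraries held between 37029519 and 63042245 estimated counts, and levels are given as counts scaled to the library total (CPM). Cbx5 lay at 9.20 to 19.7 CPM in HP1a KO and 18.5 to 61.8 CPM in HP1a WT libraries, without overlap within a condition, and Cbx3 at 60.5 to 80.8 CPM in HP1g KO against 79.1 to 199 CPM in HP1g WT. All 8 T cell markers (Cd3e, Cd3d, Cd3g, Cd4, Lck, Cd5, Cd28, Cd247) had counts in every group, with a sum of 5367 to 8570 CPM. Replicate pairs were never identical.

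H2-Ab1 encodes the beta chain of H2-A (I-A), the main class II molecule of H-2b mice. In naive cells it stood at 1.93, 1.79 and 1.72 CPM in HP1a WT (replicates 1, 2 and 3, in that order here and below) and at 1.91, 1.53 and 2.51 CPM in HP1a KO. Naive HP1g WT libraries held 1.59, 1.69 and 2.66 CPM and HP1g KO 3.51, 5.24 and 3.32 CPM. The naive values were low throughout, and HP1g KO lay above HP1g WT without overlap. Tconv of the HP1a line held 6.90, 5.59 and 8.94 CPM in WT and 35.9, 10.3 and 111 CPM in KO. Tconv of the HP1g line held 5.92, 15.9 and 28.2 CPM in WT and 4.54, 23.0 and 58.9 CPM in KO. The 3 HP1a WT libraries were tight, whereas each other Tconv group spread over several fold and every HP1a KO library lay above every HP1a WT library. With Treg, H2-Ab1 stood at 30.4, 72.4 and 18.4 CPM in HP1a WT and at 147, 12.9 and 134 CPM in HP1a KO. The HP1g line with Treg held 4.23, 30.02 and 20.04 CPM in WT and 6.64 and 31.5 CPM in KO. The highest level of all 35 libraries, 147 CPM, was thus in HP1a KO with Treg, 96.2 times the lowest.

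H2-Aa encodes the alpha chain of the same molecule. Naive levels were 1.23, 1.10 and 0.752 CPM in HP1a WT and 1.77, 0.925 and 2.27 CPM in HP1a KO. In the naive HP1g line they were 1.32, 1.69 and 1.79 CPM in WT and 2.39, 3.37 and 2.76 CPM in KO. Again only HP1g KO stood clear of its WT. HP1a Tconv held 1.77, 0.381 and 1.79 CPM in WT and 18.4, 3.20 and 73.6 CPM in KO. HP1g Tconv held 2.34, 7.24 and 16.3 CPM in WT and 1.4998, 11.2 and 36.9 CPM in KO. HP1a WT Tconv thus overlapped with naive cells of the same genotype, while every HP1a KO library lay above both. With Treg, HP1a WT reached 23.7, 50.6 and 9.26 CPM and HP1a KO 96.7, 9.86 and 96.0 CPM. HP1g WT with Treg held 0.265, 21.4 and 12.3 CPM and HP1g KO 3.81 and 16.9 CPM. The range of 366-fold over all libraries, from 0.265 to 96.7 CPM, was the widest of the 7 genes.

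H2-Eb1, the beta chain of H2-E (I-E), lay between 0.694 and 1.90 CPM in all 12 naive libraries. In HP1a Tconv it stood at 1.64, 1.61 and 0.924 CPM in WT and at 16.6, 3.83 and 50.1 CPM in KO. In HP1g Tconv it stood at 2.48, 8.63 and 12.7 CPM in WT and at 0.877, 9.36 and 27.9 CPM in KO. The genotypes of the HP1a line did not overlap and those of the HP1g line did. With Treg the levels were 23.4, 44.5 and 11.2 CPM in HP1a WT, and 76.8, 7.71 and 72.2 CPM in HP1a KO. HP1g WT with Treg held 0.936, 11.8 and 9.35 CPM, and HP1g KO 2.75 and 13.4 CPM. Within a group, the replicate lowest for H2-Ab1 was lowest for H2-Eb1 as well in each of the 8 grafted groups except HP1a WT Tconv.

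Cd74, the invariant chain (chr18:60936899-60945731), had the most counts of the 4 classical genes. Naive levels were 11.4, 10.8 and 6.76 CPM in HP1a WT, and 11.6, 6.82 and 12.5 CPM in HP1a KO. Naive HP1g WT held 10.4, 13.2 and 14.8 CPM and HP1g KO 19.7, 20.9 and 14.0 CPM. Here the naive genotypes overlapped in both lines. HP1a Tconv held 24.5, 39.7 and 26.2 CPM in WT and 89.8, 63.3 and 326 CPM in KO. HP1g Tconv held 48.5, 65.96 and 93.8 CPM in WT and 20.3, 82.6 and 156 CPM in KO. Cd74 thus exceeded the naive libraries of its own line and genotype in every Tconv library but HP1g KO replicate 1. With Treg it stood at 118, 219 and 49.6 CPM in HP1a WT and at 420.4, 54.8 and 369 CPM in HP1a KO. HP1g WT with Treg held 21.8, 97.0 and 77.3 CPM and HP1g KO 49.5 and 114 CPM. As for the chains, replicate 2 of HP1a KO with Treg was far below the other two.

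Ciita, the transactivator, was scarce in all libraries. It lay between 0.135 and 0.840 CPM in naive cells, with all 4 naive groups overlapping. HP1a Tconv held 0.464, 0.445 and 0.816 CPM in WT and 1.36, 0.255 and 4.74 CPM in KO. HP1g Tconv held 0.262, 1.14 and 1.24 CPM in WT and 0.506, 1.35 and 3.61 CPM in KO. Unlike the chains, Ciita overlapped between HP1a WT and KO Tconv, with KO replicate 2 the lowest of the 6. With Treg it reached 1.87, 4.13 and 1.79 CPM in HP1a WT and 7.02, 1.45 and 9.42 CPM in HP1a KO. HP1g WT with Treg held 0.102, 1.51 and 1.27 CPM and HP1g KO 0.346 and 0.725 CPM. The top value of 9.42 CPM was 92.6 times the lowest.

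The chains of H2-DM behaved apart. H2-DMb1, the beta chain, lay between 0.114 and 0.806 CPM in naive cells. In HP1a Tconv it stood at 0.928, 0.741 and 0.761 CPM in WT and at 3.38, 3.15 and 9.22 CPM in KO, and in HP1g Tconv at 0.765, 2.62 and 2.06 CPM in WT and 1.013, 2.33 and 4.16 CPM in KO. With Treg it held 1.87, 4.56 and 2.85 CPM in HP1a WT and 9.48, 1.70 and 8.26 CPM in HP1a KO, and in the HP1g line 0.387, 2.63 and 2.39 CPM in WT and 1.07 and 3.33 CPM in KO. H2-DMb1 thus followed the classical chains and stayed under 1 CPM in naive cells. H2-DMa, the alpha chain, lay between 26.4 CPM (naive HP1g KO) and 65.6 CPM (naive HP1g WT), a range of only 2.49-fold. Its group means ran from 30.6 ± 4.18 CPM (SD, n = 3) in naive HP1g KO to 57.7 ± 2.10 CPM (n = 3) in HP1a WT with Treg. The ratio of H2-DMa to H2-DMb1 CPM, not corrected for length, was 32.7 to 309 in naive and 5.15 to 105 in grafted libraries. H2-DMa (chr17:34338515-34358958) overlaps Brd2 on the other strand, and the library kit kept no strand, so its level cannot be told apart from reads of that gene. H2-DMb1 and its paralog H2-DMb2 may share reads, as may H2-Eb1 and H2-Eb2, and H2-Aa and H2-Eb1 overlap on opposite strands.

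**Figure D1:**
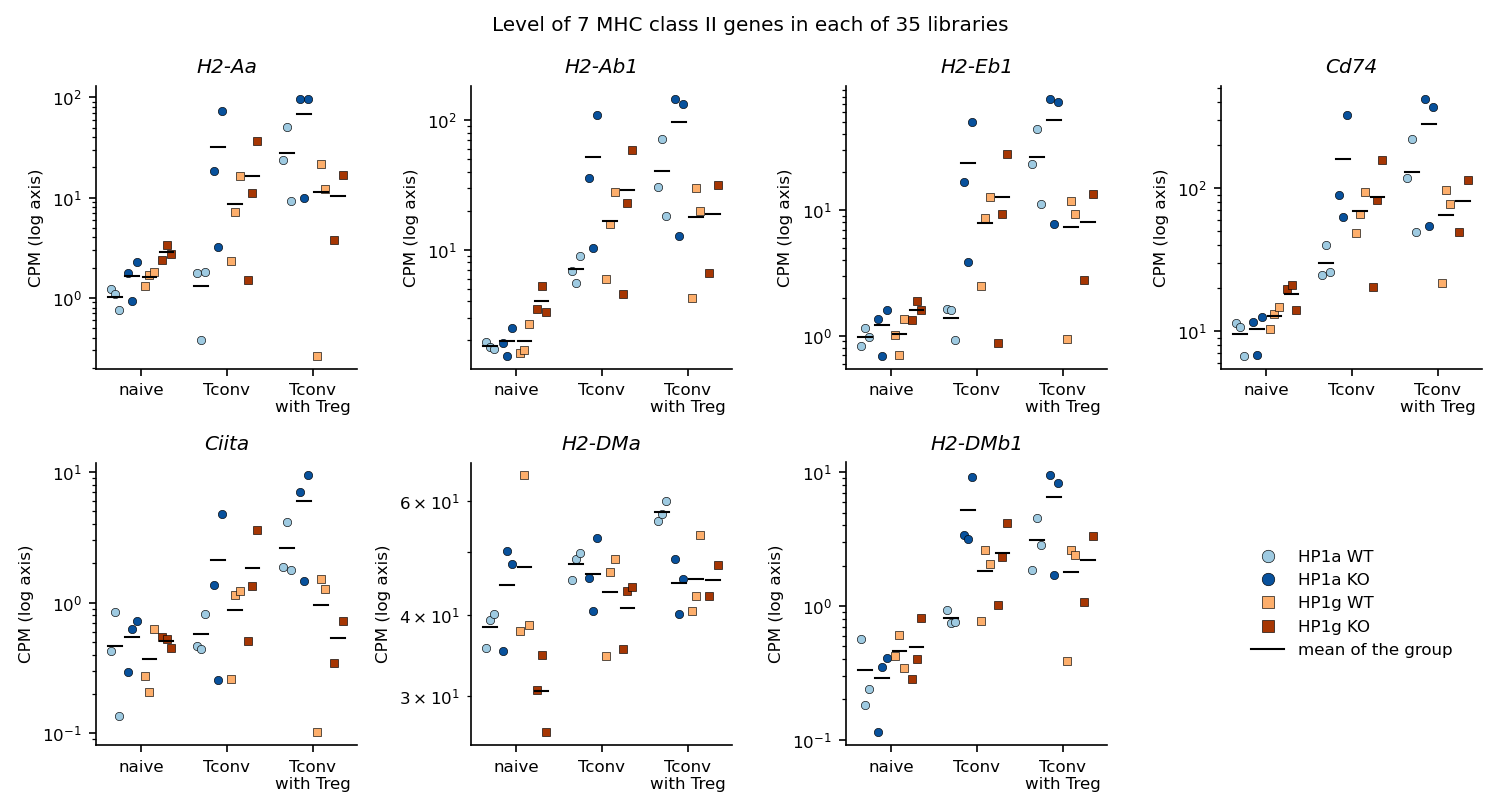
Level of each of the 7 genes in every library, in CPM on a log axis, with libraries grouped by line, genotype and condition. Points are single libraries and bars are group means. 6 genes run from low naive values to grafted values that spread widely within groups, over more than 10-fold in at least 1 group for H2-Aa, H2-Ab1, H2-Eb1 and Ciita, and H2-DMa stays between 26.4 and 65.6 CPM.

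Ranked by mean, HP1a KO with Treg came first for 6 of the 7 genes, with H2-Aa at 67.5 ± 49.9 CPM, H2-Ab1 at 97.9 ± 73.9 CPM, H2-Eb1 at 52.2 ± 38.6 CPM, Cd74 at 281 ± 198 CPM, Ciita at 5.96 ± 4.09 CPM and H2-DMb1 at 6.48 ± 4.18 CPM (SD, n = 3). The SD was large beside the mean in each, and the libraries of this group overlapped with those of the next. Of the 11 steps between neighbours in each order, H2-Ab1 and H2-DMa had 2 without overlap, H2-Aa and Cd74 had 1, and H2-Eb1, Ciita and H2-DMb1 had 0. Of the neighbours that were both grafted groups, 1 pair did not overlap, HP1a WT with Treg above HP1a WT Tconv for H2-DMa. Per kilobase of exon, so that genes can be compared, HP1a WT with Treg held 51.3 CPM/kb of Cd74, 15.7 of H2-Ab1, 13.3 of H2-DMa, 10.2 of H2-Eb1, 6.49 of H2-Aa, 4.07 of H2-Ea, 1.84 of H2-DMb1 and 0.235 of Ciita. In naive HP1a WT cells the order differed. H2-Ob led with 12.8 CPM/kb and H2-DMa followed with 8.85 CPM/kb, ahead of Cd74 with 3.84, H2-Ab1 with 0.705, H2-Eb1 with 0.379 and H2-Aa with 0.239 CPM/kb.

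The study asked whether loss of HP1a or HP1g changes what T cells express and how they respond to Treg. Each KO group was compared with its WT by the edgeR quasi-likelihood test with Benjamini-Hochberg adjustment over all genes tested, and a call needed an adjusted p under 0.05 together with an absolute log2 fold change above 1. Differences below are log2 fold changes ± SE. By edgeR, none of the 7 genes was called in any of the 6 KO against WT comparisons. The authors used DESeq2, whose counts are given beside those of edgeR.

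In HP1a Tconv without Treg, the difference was widest in size. The class II chains were higher in every KO library than in any WT library, and so were Cd74 and H2-DMb1, which makes 5 of 7 genes against 6.74% of all genes tested (1046 of 15521). However, edgeR called 0 of 7 against 0.103% of all genes (16 of 15521). At an unadjusted p under 0.05 the count was 5, and DESeq2 called 3 (H2-Aa, H2-Eb1 and H2-DMb1). H2-Aa differed by 4.63 ± 1.41 (adjusted p = 0.552), H2-Eb1 by 4.09 ± 1.05 (0.549), H2-Ab1 by 2.89 ± 0.94 (0.552) and Cd74 by 2.42 ± 0.74 (0.552). H2-DMb1 differed by 2.71 ± 0.46 with an adjusted p of 0.203 in edgeR, 0.0175 without the filter on low counts and 5.88e-07 in DESeq2. DESeq2 gave H2-Aa an adjusted p of 0.0158 and H2-Eb1 one of 0.00357. Ciita differed by 1.91 ± 0.96 (0.617) and H2-DMa by -0.04 ± 0.11 (0.922). The median of the 7 genes was 2.71 and that of all genes 0.00. The KO replicates themselves spread over more than 10-fold for H2-Aa, H2-Ab1 and H2-Eb1, with replicate 2 lowest and replicate 3 highest.

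Sums of macrophage and neutrophil markers were higher in every KO library than in any WT library. Those of dendritic cell and B cell markers overlapped. The 10 macrophage markers (Csf1r, Adgre1, Cd68, Fcgr1, Mertk, C1qa, C1qb, C1qc, Cd14, Lyz2) summed to 58.7, 13.5 and 270 CPM in HP1a KO Tconv, the same order of replicates as for H2-Ab1, and to 6.88, 5.72 and 5.71 CPM in HP1a WT Tconv, where Fcgr1 and Mertk were at 0. All 10 had counts in KO and 8 of 10 in WT. The 8 dendritic cell markers summed to 8.28 to 35.1 CPM in KO and 15.4 to 22.3 CPM in WT, where Flt3, Clec9a, Siglech, Cd209a and Clec10a were at 0. The 10 B cell markers summed to 6.52 to 13.8 CPM in KO and 5.44 to 19.7 CPM in WT, and 6 neutrophil markers to 1.69 to 60.1 CPM in KO and 0.0816 to 0.246 CPM in WT. The part of these cells in the class II difference was not tested. In bulk libraries fewer cells of a type and less RNA per cell cannot be told apart.

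With Treg, HP1a KO again averaged higher for 6 genes, but the groups overlapped. edgeR called 0 of 7 against 0.123% of all genes (20 of 16256), with 1 at an unadjusted p under 0.05 and 0 in DESeq2. H2-Aa differed by 1.26 ± 0.85 (adjusted p = 0.605), H2-Ab1 by 1.26 ± 0.84 (0.594), Cd74 by 1.11 ± 0.76 (0.607), Ciita by 1.18 ± 0.69 (0.545), H2-DMb1 by 1.05 ± 0.65 (0.573) and H2-Eb1 by 0.97 ± 0.80 (0.669). HP1a KO replicate 2 lay inside or below the WT range for each of these. H2-DMa was the one gene of the 7 without overlap, and lay lower in KO, as did 9.71% of all genes (1578 of 16256), at 48.8, 40.1 and 45.4 CPM in KO and 55.9, 57.2 and 60.0 CPM in WT, a difference of -0.39 ± 0.15 (0.361). The median of the 7 genes was 1.11 against -0.01 for all genes. Macrophage markers summed to 291, 52.9 and 385 CPM in KO and 30.6, 22.5 and 54.4 CPM in WT, and neutrophil markers to 240 to 434 CPM and 1.58 to 36.97 CPM. Their part was not tested.

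In naive cells the HP1a genotypes overlapped for all 7 genes, where 6.17% of all genes did not overlap (960 of 15549), and edgeR called 0 of 7 against 0% of all genes (0 of 15549), 0 at an unadjusted p under 0.05 and 0 in DESeq2. Adjusted p was 0.9999 for each, the median was 0.21, and with the replicate number as a block 12 genes were called, none of the 7 among them. In naive HP1g cells edgeR called 0 of 7 against 0.00669% of all genes (1 of 14939), with 4 at an unadjusted p under 0.05 and 0 in DESeq2. H2-Ab1 differed by 1.04 ± 0.30 and H2-Aa by 0.85 ± 0.25, both higher in every HP1g KO than in every WT library (adjusted p = 0.630 for each), as were 8.89% of all genes (1328 of 14939). H2-Eb1 differed by 0.66 ± 0.33 and Cd74 by 0.54 ± 0.20, with overlap, Ciita by 0.49 ± 0.48 and H2-DMb1 by 0.15 ± 0.49. H2-DMa stood at 30.6, 34.7 and 26.4 CPM in KO and 37.8, 65.6 and 38.6 CPM in WT, lower in KO without overlap like 7.93% of all genes (1184 of 14939), by -0.60 ± 0.22 (adjusted p = 0.630). The B cell markers moved with the chains here, with sums of 9.63 to 11.9 CPM in KO and 4.17 to 6.80 CPM in WT and all 10 markers counted in both. Their part was not tested.

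In grafted HP1g cells no member separated the genotypes. edgeR called 0 of 7 in HP1g Tconv against 0.0437% of all genes (7 of 16015), with adjusted p from 0.810 to 0.964. In HP1g Tconv with Treg it called 0 of 7 against 0% of all genes (0 of 17177), with adjusted p from 0.831 to 0.993. In both comparisons 0 of the 7 passed an unadjusted p under 0.05, 0 were called by DESeq2, and the groups overlapped for each of the 7, while 13.9% of all genes in Tconv (2230 of 16015) and 29.4% with Treg (5048 of 17177) did not overlap. Their medians were 0.70 and 0.07. Without HP1g KO Tconv replicate 3 the Tconv differences of H2-Aa, H2-Ab1, H2-Eb1, Cd74 and H2-DMb1 turned to between -0.61 and -0.099, and with Treg each of the 7 but Ciita turned when 1 library or another was left out. With the replicate number as a block, HP1g Tconv gave 74 called genes in place of 7, and still 0 of the 7 class II genes.

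The next question was what Treg in the host do to the Tconv. In HP1a WT, 5 of 7 genes rose with Treg against 3.54% of all genes called higher (553 of 15627): H2-Aa by 4.45 ± 0.79 (adjusted p = 0.0173), H2-Eb1 by 4.27 ± 0.55 (0.00564), H2-Ab1 by 2.53 ± 0.49 (0.0240), Cd74 by 2.13 ± 0.50 (0.0443) and H2-DMb1 by 1.97 ± 0.47 (0.0464). Ciita differed by 2.21 ± 0.54 and missed the threshold (0.0522), though DESeq2 called it as a sixth gene. H2-DMa differed by 0.31 ± 0.13 (0.218). For all 7 genes every library with Treg lay above every library without, as it did for 14.7% of all genes tested (2297 of 15627). The median of the 7 was 2.21 and that of all genes 0.03.

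How firm these calls are varies between genes. H2-Eb1 was called with any 1 of the 6 libraries left out. The number called fell from 5 to 1 without any of the 3 HP1a WT Tconv libraries, to 2 without Tconv with Treg replicate 1 and to 3 without replicate 2, and was 6 without replicate 3. Without the filter on low counts 2 were called (H2-Ab1 and H2-Eb1), and with the replicate number as a block 3 (H2-Aa, H2-Eb1 and Cd74). Macrophage markers summed to 22.5 to 54.4 CPM with Treg (9 of 10 with counts, Mertk at 0) and 5.71 to 6.88 CPM without. The summed CPM of H2-Aa, H2-Ab1, H2-Eb1 and Cd74 was also taken per CPM of macrophage marker. With Treg it was 1.62, 6.38 and 17.2 from lowest to highest, and without Treg 5.07 to 8.28. B cell markers summed to 20.6, 37.9 and 11.04 CPM in replicates 1, 2 and 3 with Treg, and to 5.44 to 19.7 CPM without. Dendritic cell markers summed to 9.93 to 14.6 CPM with Treg, where all 8 had counts in the group. Without Treg they summed to 15.4 to 22.3 CPM, with only 3 of 8 counted. Flt3, Clec9a, Siglech, Cd209a and Clec10a were at 0 there, so the sums and the markers counted went in opposite directions. Neutrophil markers summed to 1.58 to 36.97 CPM with Treg and 0.0816 to 0.246 CPM without. The part of these cells in the result was not tested.

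In HP1a KO the Treg comparison gave no call. Here edgeR called 0 of 7 against 0.440% of all genes (71 of 16133), with 0 at an unadjusted p under 0.05 and 0 in DESeq2. H2-Eb1 differed by 1.17 ± 1.13, H2-Aa by 1.11 ± 1.24, H2-Ab1 by 0.92 ± 1.12, Cd74 by 0.84 ± 0.93, Ciita by 1.503 ± 1.07, H2-DMb1 by 0.33 ± 0.71 and H2-DMa by -0.03 ± 0.13 (adjusted p from 0.572 to 0.946). Groups overlapped for each gene, where 22.7% of all genes did not overlap (3666 of 16133), and the SE was larger than the difference for 5 of the 7. In HP1g WT, edgeR called 0 of 7 against 0.0126% of all genes (2 of 15903). In HP1g KO it called 0 of 7 against 0% of all genes (0 of 16991). In both HP1g comparisons 0 of the 7 passed an unadjusted p under 0.05 and 0 were called by DESeq2, with medians of 0.07 in WT and -0.61 in KO. These directions were not stable. In HP1g KO, H2-Aa, H2-Ab1, H2-Eb1 and Cd74 turned to 0.96, 0.50, 1.06 and 0.87 with the replicate block, and to values above 0 without Tconv replicate 3 or Tconv with Treg replicate 1. In HP1g WT each of the 7 turned in at least 1 fit that left out a library. Macrophage markers in the HP1g line were present without Treg too, at 25.5 to 67.4 CPM in WT and 24.2 to 92.9 CPM in KO.

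A call in HP1a WT and none in HP1a KO does not show that the genotypes respond differently, and the difference itself was tested. The genotype by Treg interaction called 0 of 7 in the HP1a line against 0.139% of all genes (24 of 17205), with 1 at an unadjusted p under 0.05, 0 in DESeq2 and adjusted p from 0.462 to 0.889. In the HP1g line it called 0 of 7 against 0% of all genes (0 of 17833), with 0 at an unadjusted p under 0.05 and 0 in DESeq2. The HP1a and HP1g KO effects with Treg were set against each other in the same way, and edgeR called 0 of 7 against 2.72% of all genes (506 of 18573), with 0 at an unadjusted p under 0.05, 0 in DESeq2 and adjusted p from 0.397 to 0.825. The HP1a interaction median was -1.61 for the 7 genes and -0.02 for all genes. These comparisons share groups with those above.

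**Figure D2:**
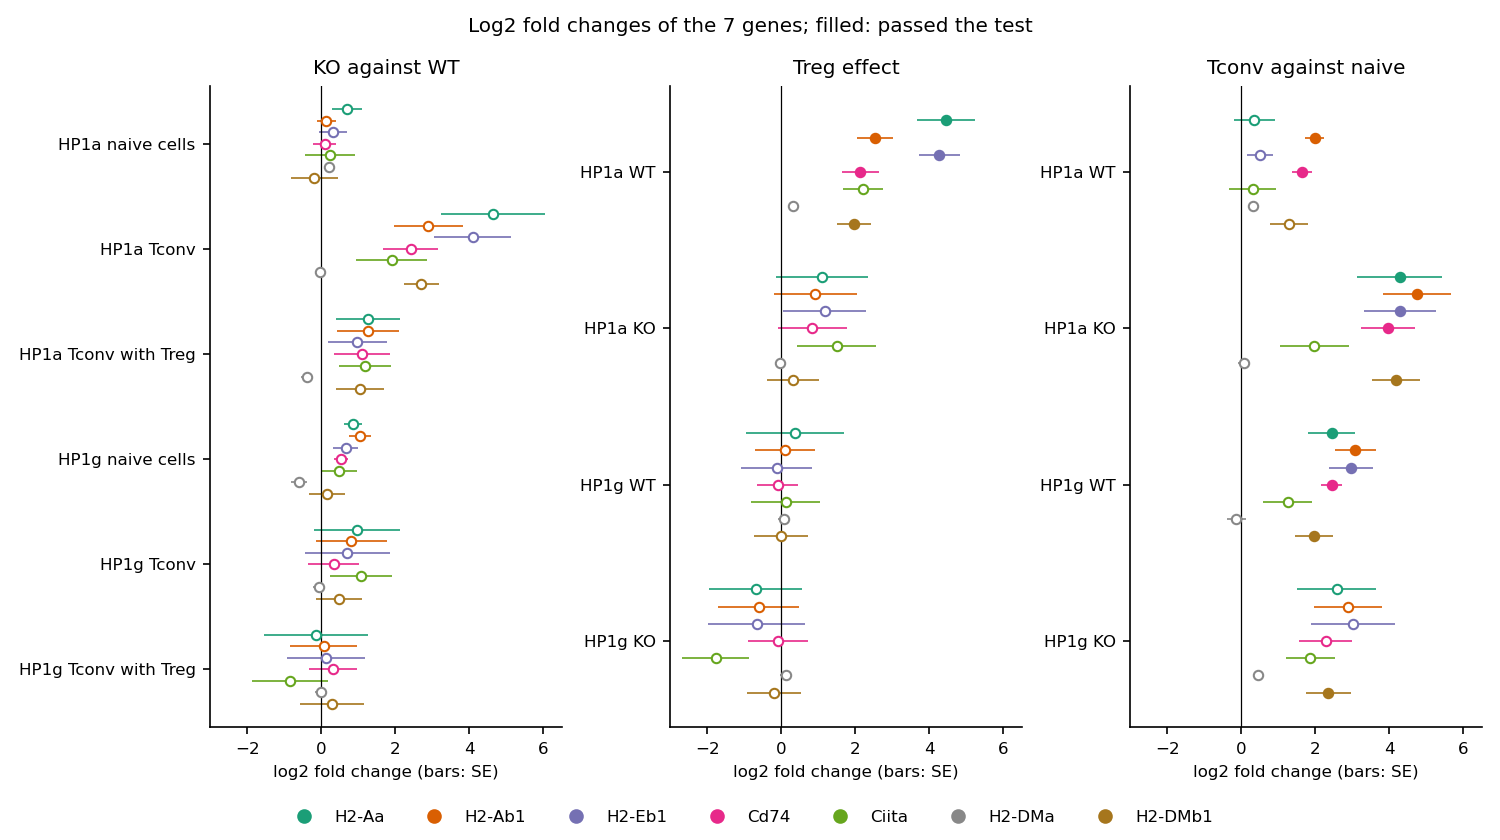
Log2 fold change with its SE for each of the 7 genes in the KO against WT, Treg and Tconv against naive comparisons; filled points are called (adjusted p under 0.05 and absolute log2 fold change above 1). The Treg panel shows 5 called genes in HP1a WT and 0 in the other 3, and the KO against WT panel shows none called.

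From naive cells to grafted Tconv, 5 of the 7 genes rose in HP1a KO and in HP1g WT, 2 in HP1a WT and 1 in HP1g KO, and none fell. The share in HP1g KO was close to that of all genes, and the 2 in HP1a WT became 0 with all libraries of the line in 1 fit. Naive and grafted cells were also isolated in different ways, by negative selection and by sorting, so the graft and the isolation cannot be told apart. In HP1a WT, 2 of 7 genes rose against 12.9% of all genes called higher (2067 of 16027): H2-Ab1 by 1.98 ± 0.25 (adjusted p = 0.000379) and Cd74 by 1.64 ± 0.26 (0.00134). H2-Aa differed by 0.35 (0.639), H2-Eb1 by 0.50 (0.277), H2-DMb1 by 1.29 (0.0697) and Ciita by 0.30 (0.731). H2-DMa passed the adjusted p, at 0.0211, with a difference of 0.33 ± 0.09 that was under the fold threshold. H2-Ab1 was thus 3.89, 14.7 and 4.98 times H2-Aa in CPM in the HP1a WT Tconv libraries, against 1 to 2.28 times in naive ones, with no correction for length.

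In HP1a KO, 5 of 7 rose against 12.4% of all genes (1961 of 15773): H2-Ab1 by 4.74 ± 0.92 (adjusted p = 0.00812), H2-Eb1 by 4.28 ± 0.98 (0.0147), H2-Aa by 4.27 ± 1.15 (0.0274), H2-DMb1 by 4.18 ± 0.64 (0.00193) and Cd74 by 3.97 ± 0.72 (0.00633). Ciita differed by 1.97 (0.138) and H2-DMa by 0.07 (0.744). In HP1g WT the same 5 rose against 15.0% of all genes (2371 of 15812): H2-Ab1 by 3.08 ± 0.55 (0.00408), H2-Eb1 by 2.95 ± 0.59 (0.00699), H2-Aa by 2.44 ± 0.63 (0.0213), Cd74 by 2.44 ± 0.28 (0.000430) and H2-DMb1 by 1.97 ± 0.51 (0.0213). Ciita differed by 1.25 (0.192) and H2-DMa by -0.13 (0.731). These 5 did not overlap between naive and grafted libraries in either group, and neither did 29.0% of all genes in HP1a KO (4567 of 15773) and 27.3% in HP1g WT (4317 of 15812), counted in the same direction. The median of the 7 genes was 0.50 in HP1a WT, 4.18 in HP1a KO, 2.44 in HP1g WT and 2.35 in HP1g KO, with the median of all genes between -0.04 and 0.02.

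In HP1g KO, only H2-DMb1 rose by edgeR, by 2.35 ± 0.61 (adjusted p = 0.0145), that is 1 of 7 against 15.7% of all genes (2506 of 15912). At an unadjusted p under 0.05 the count was 6, and DESeq2 called 5. H2-Ab1 differed by 2.87 (0.0522), Cd74 by 2.27 (0.0527), Ciita by 1.86 (0.0519), H2-Eb1 by 3.02 (0.0874) and H2-Aa by 2.57 (0.111). H2-DMa differed by 0.45 (0.0294), under the fold threshold. The count turned on single libraries. Without HP1g KO Tconv replicate 1, whose H2-Ab1, Cd74 and Ciita lay within the naive HP1g KO range and whose H2-Aa and H2-Eb1 lay below it, 6 of 7 were called. Without naive HP1g KO replicate 1 or replicate 2, none was. In HP1a KO the count was 3 without naive replicate 1 or 2 and 6 without Tconv replicate 2, and in HP1g WT it was 3 without naive replicate 1, naive replicate 3 or Tconv replicate 3. Macrophage markers summed to 2.72 to 7.94 CPM in naive libraries and to 13.5 CPM or more in the grafted groups other than HP1a WT Tconv, which held 5.71 to 6.88 CPM. Dendritic cell markers summed to 1.29 to 3.27 CPM in naive HP1a WT (6 of 8 with counts) and 15.4 to 22.3 CPM in HP1a WT Tconv (3 of 8 with counts). The part of these cells in the result was not tested.

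H2-Ea (chr17:34560926-34563618), the alpha partner of H2-Eb1, is the chain that the H-2b haplotype is known not to transcribe. The allele of its reads was not examined, so their origin was not tested. H2-Ea had 0 counts in 28 of the 35 libraries, among them all 12 naive ones. HP1a WT with Treg held 230, 279 and 87 counts, beside 1218, 2060 and 431 counts of H2-Eb1, so that H2-Ea came to 18.9%, 13.5% and 20.2% of its partner. HP1g KO with Treg held 15 and 16 counts, 9.43% and 1.92% of H2-Eb1. HP1a KO with Treg held 0, 0 and 6 counts although H2-Eb1 stood there at 3646, 308 and 4053 counts, and HP1g KO Tconv replicate 2 held 3. The 2 libraries richest in H2-Eb1 thus held 0 and 6 counts of H2-Ea, and most H2-Ea counts lay in the libraries of HP1a WT cells with Treg. HP1a WT with Treg was at least 56.0-fold higher than HP1a WT without, with the group at 0 set to 3 counts per library. The edgeR fit called it in that comparison (adjusted p = 0.00554). HP1g KO with Treg was at least 4.21-fold higher than HP1g WT with Treg by the same floor, and was not called (adjusted p = 0.229). HP1a KO against WT with Treg was not called either (0.0860). The sort gate took H-2Kd- cells, the host is H-2b, and H-2d reads may align less well to an H-2b reference.

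**Figure D3:**
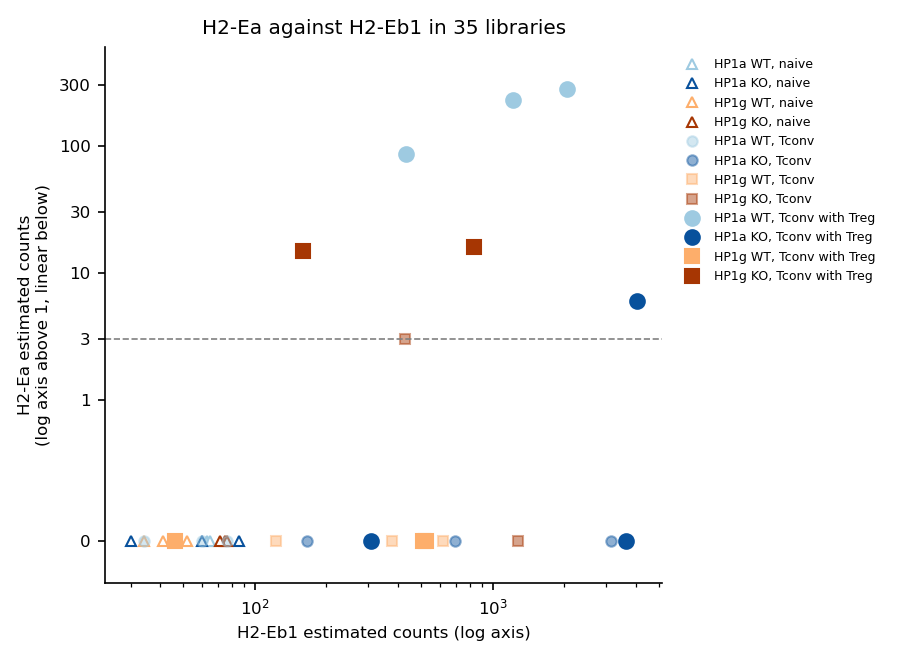
Counts of H2-Ea against counts of its partner H2-Eb1, 1 point per library. The 3 libraries of HP1a WT with Treg stand apart with 87 to 279 H2-Ea counts, while HP1a KO with Treg reaches 4053 H2-Eb1 counts with at most 6 of H2-Ea.

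Of the 18 other class II pathway genes, 12 regulators of Ciita and 9 class I presentation genes, none was called in any KO against WT comparison. With Treg in HP1a WT, 2 pathway genes rose, H2-Ea and Ctsl (cathepsin L, by 3.16, adjusted p = 0.0282). Ctsl was called in only 1 of the 6 fits that left out a library, the one without Tconv with Treg replicate 3. The median over the 16 pathway genes tested was 0.44. Among the regulators, Irf8 rose by 1.53 (0.00971; not called without HP1a WT Tconv replicate 2) and Ifngr1, a chain of the interferon gamma receptor, fell by 2.38 (0.00199), against 2.43% of all genes called lower (379 of 15627). Ifngr1 stood at 155 to 216 CPM in naive HP1a WT, 625 to 1085 CPM in Tconv and 135 to 165 CPM with Treg, without overlap between the grafted groups. No class I gene was called with Treg in HP1a WT, and none of the 3 lists had a call with Treg in HP1a KO, HP1g WT or HP1g KO.

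The clearest change of the wider pathway was a loss in the opposite direction. H2-Ob, the beta chain of the H2-DM inhibitor H2-O, stood at 63.8 to 81.5 CPM in all 12 naive libraries and 3.48 to 22.7 CPM in all 23 grafted ones. From naive cells to Tconv it fell in all 4 groups, with log2 fold changes of -3.32 in HP1a WT (adjusted p = 2.07e-05), -2.84 in HP1a KO (7.05e-05), -4.05 in HP1g WT (1.88e-05) and -2.79 in HP1g KO (0.0047). It was called in every alternative and with any library left out. H2-Oa, its alpha partner, lay between 1.70 and 7.05 CPM and was not called. Other pathway genes lower in Tconv were Ctsl and Lgmn, endosomal proteases, in 3 of the 4 groups, Marchf1, a ligase that removes class II from the surface, in HP1a WT, and Ctss in HP1g WT. Lgmn was called in HP1a WT in only 1 of 6 fits that left out a library. Marchf8, a related ligase, rose in the 3 groups other than HP1a WT, and its calls were lost without single libraries in each, leaving 1 of 6 such fits in HP1a KO, 5 in HP1g WT and 3 in HP1g KO. H2-DMb2 rose in HP1a KO by 2.46 (adjusted p = 0.0154), a call lost without naive replicate 2 or Tconv replicate 3. In all, 0, 2, 1 and 1 of the 16 pathway genes tested rose and 4, 1, 4 and 3 fell in HP1a WT, HP1a KO, HP1g WT and HP1g KO. Of all genes, 12.9%, 12.4%, 15.0% and 15.7% were called higher and 10.2%, 7.24%, 8.55% and 7.30% lower. The medians over the 16 were -0.18, 0.04, -0.26 and -0.01.

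Among regulators of Ciita, 3 of 11 tested rose in HP1a WT, and 4, 6 and 4 of 12 in HP1a KO, HP1g WT and HP1g KO, while 1 fell in each group, which is near the share of all genes called lower. Irf8, Ifngr1 and Prdm1 (Blimp-1, a repressor of Ciita in plasma cells) were higher and Ifngr2 was lower in all 4, and Spi1, the myeloid and B cell factor PU.1, was higher in the 3 groups other than HP1a WT. The Ifngr2 call was lost without the filter on low counts in the groups other than HP1g KO, with the replicate block in HP1a KO and HP1g WT, and in 2 of 6 fits that left out a library in HP1a WT and 4 of 6 in HP1a KO and HP1g WT. The Irf8 call in HP1a KO was lost without naive replicate 2 or 3. In HP1g WT, edgeR also called Irf4 higher by 2.22 (adjusted p = 0.0262) and Jak2 by 1.11 (0.0129). With a library left out, Irf4 was called in 2 of 6 fits and Jak2 in 4 of 6. The Irf4 call was lost without the filter on low counts and with the replicate block. The Spi1 call in HP1a KO was lost without any 1 of the naive libraries. Spi1 stood at 0.0272 to 0.273 CPM in HP1a WT Tconv and at 0.394 to 6.61 CPM in HP1a KO Tconv. Ciita itself was called by edgeR in none of them. Nlrc5, the class I counterpart of Ciita, was 68.8 to 365 CPM throughout, and the class I list had 1 call in all, Psmb8, by 1.05 in HP1a WT, which was lost without Tconv replicate 3. Nlrc5 differed with Treg in HP1a KO by 0.53 ± 0.07 (adjusted p = 0.0346), under the fold threshold. The paralogs H2-DMb2 and H2-Eb2 had their top levels, like the 6 genes above, in HP1a KO with Treg, at 11.4, 3.88 and 10.97 CPM and at 0.674, 0.2002 and 1.28 CPM.

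Across the 35 libraries the classical genes moved almost as one. On log2 CPM, Pearson's r between pairs of H2-Aa, H2-Ab1, H2-Eb1 and Cd74 was 0.897 to 0.980, Ciita correlated with them at 0.805 to 0.893 and H2-DMb1 at 0.875 to 0.940. H2-DMa stood outside, with r from 0.380 to 0.463 with the other 6. These are descriptions over libraries that share groups. The mean of the 4 classical genes correlated with the summed macrophage markers at r = 0.867 over 35 libraries and 0.713 after subtracting group means, and with dendritic cell markers at 0.727 and 0.649. With B cell markers r was 0.391 over all libraries and -0.313 within groups, but 0.841 in the 12 naive libraries, where it was 0.146 with macrophage and -0.511 with dendritic cell markers. With neutrophil markers it was 0.566 over all libraries, -0.221 within groups and 0.610 in naive ones. With T cell markers it was 0.294.

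**Figure D4:**
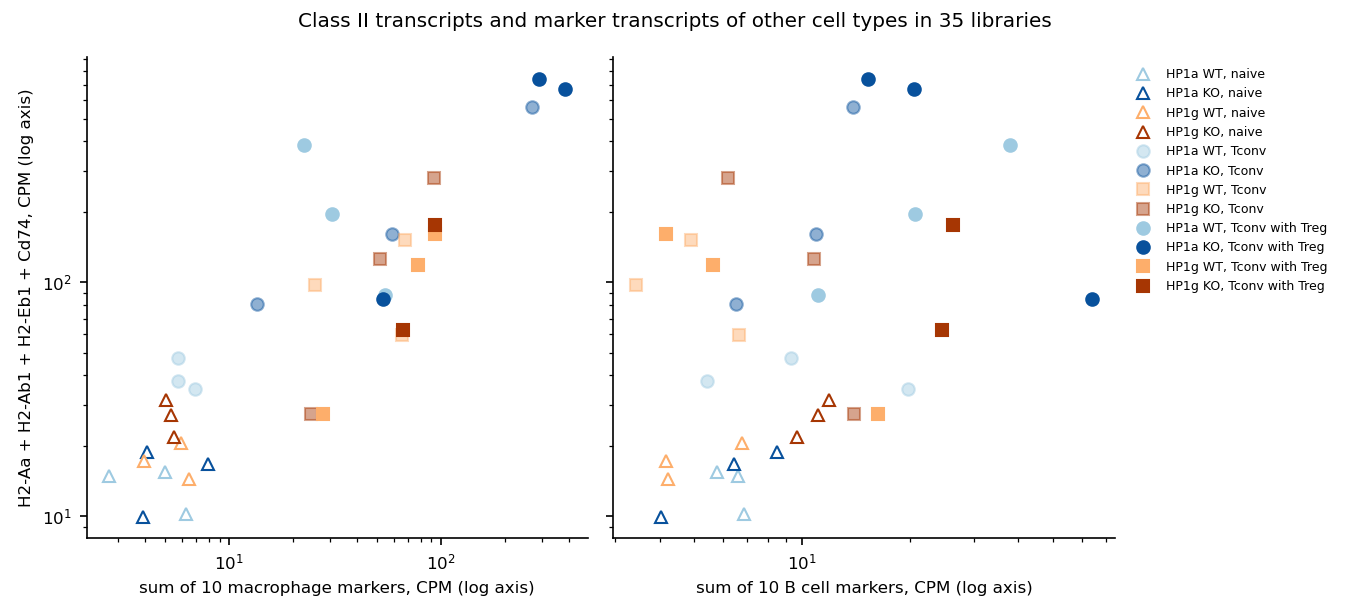
Summed CPM of H2-Aa, H2-Ab1, H2-Eb1 and Cd74 against the summed CPM of macrophage markers (left) and B cell markers (right), 1 point per library, log axes. Grafted libraries climb with the macrophage sum (r = 0.755 over 23 libraries between the mean log2 CPM of the 4 genes and the log2 marker sum), and the 3 HP1a WT libraries with Treg lie above the other libraries of like macrophage sum except where the sum is 54.4 CPM.

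The genes most like the classical mean were read from the 10877 genes that averaged 1 CPM or more. Over 35 libraries the 10 highest were Ctsh (r = 0.956), Clec4a3, Mpeg1, Sirpa, Cd300a, Ly86, Fcna, Siglech, Adgre1 and C1qa (0.923). On deviations from group means they were Spic (0.915), Sirpa, Nr1h3, Adgre1, Ctsh, Vcam1, Csf1r, Siglech, Mertk and Adgre4 (0.888), and 4 genes were in both lists. Adgre1, C1qa, Csf1r and Mertk were in the fixed macrophage list and Siglech in the dendritic cell list, and no B cell or T cell marker was among them.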

How the data were processed

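RNA was amplified with SMART-Seq v4 PLUS, which keeps no strand, and sequenced paired-end. The authors aligned reads with STAR and quantified genes with Salmon in nf-core/rnaseq on GRCm39 with Ensembl annotation, and deposited estimated counts per gene. They left out 1 library for its GC content, exonic share and 5′-3′ bias, and it was left out here too.

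From the 36 deposited libraries, 35 were used. Estimated counts were rounded to whole numbers. CPM were taken over library totals of 37029519 to 63042245, each multiplied by its TMM factor over the 35 libraries. The CPM of the library left out used factors over all 36. A gene at 0 was bounded by 3 counts per library, which covers counting error only. No replicate pair of 36 was identical, and the lowest chi-square per gene was 8.37. Tests used edgeR 4.0.16 in R 4.3.3 (TMM, its filter on low counts by group, robust quasi-likelihood) with Benjamini-Hochberg adjustment. Each fit covered all genes and only the groups compared. The authors called genes with DESeq2 at the same thresholds on adjusted p and fold change, so the edgeR counts are not theirs. The scripts were tested on simulated data. DESeq2 1.42.0, RLE size factors, no filter, no fold threshold, all libraries of the lines in 1 fit, a replicate block, the left-out library put back and each library left out in turn were the alternatives.

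Replicate numbers are shared between groups, and the labels do not say what a number marks. Of the comparisons with 3 pairs of same-numbered libraries, 2 had deviations that correlated above 0.1 in every pair. These were HP1a KO against WT in naive cells (0.287 to 0.654) and HP1g KO against WT in Tconv (0.112 to 0.431). The blocked counts are given beside those results. HP1g KO against WT with Treg (0.197 to 0.38) and Treg in HP1g KO (0.1 to 0.184) had only 2 pairs and were not counted as paired. With the block, HP1g KO against WT with Treg gave 30 called genes in place of 0, and 0 of the 7. H2-Aa, Ciita and H2-DMa turned in direction there.

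The 7 genes and every list were chosen with earlier results of these data known. All 7 were named with their level in every library. Genes of the other lists were named where called, or as a paralog, partner chain or class I counterpart of a member. Likeness used log2 CPM (TMM, prior count 2) in genes of mean 1 CPM or more, without immunoglobulin, T cell receptor segment and predicted genes, and marker sums used log2 of CPM plus 1. Positions and promoter windows (250 bases) came from GENCODE M39 on the same build, with canonical start sites. Promoter sequences of Cd74 and H2-DMa are not reported here.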

Additional observations from a re-analysis of the deposited data

Results flagged for a closer look

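H2-Ea, the alpha partner of H2-Eb1, differed between the lines in its KO effect with Treg by a log2 value of -13.4 (HP1a minus HP1g, edgeR adjusted p = 0.0149). HP1a WT held 230, 279 and 87 counts against 0, 0 and 6 in HP1a KO, and HP1g KO 15 and 16 against 0 in each HP1g WT library. The fitted size rests on groups at 0 and is no bound. The call was lost with a replicate block, with the left-out library put back and without HP1g KO with Treg replicate 1.

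Ifngr1, a chain of the interferon gamma receptor, differed between the lines in the same test by 1.99 (edgeR adjusted p = 0.0289). It averaged 342 ± 103 CPM in HP1a KO and 154 ± 17.1 CPM in HP1a WT with Treg (SD, n = 3), and 411 ± 105 CPM in HP1g KO (n = 2) and 740.1 ± 202 CPM in HP1g WT (n = 3). The call was lost with the left-out library put back and in 6 of 11 fits that left out a library.

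The library left out, HP1g KO Tconv with Treg replicate 3, held 1515 CPM of Cd74 and 56.2 CPM of Ciita, above the highest of the 35 libraries used (420.4 and 9.42 CPM). Its classical chains did not stand out, with 4.23 CPM of H2-Aa, 7.55 CPM of H2-Ab1 and 15.4 CPM of H2-Eb1, and H2-DMb1 had 1 count.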

How the results depend on the processing

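Counts are of the 7 genes called. In HP1a Tconv, KO against WT, 0 became 3 with DESeq2 and 1 without the filter on low counts. For Treg in HP1a WT, 5 became 2 without the filter and 3 with the replicate block. From naive cells to Tconv, 2 in HP1a WT became 0 with all libraries of the line in 1 fit, 5 in HP1a KO became 2 without the filter, 5 in HP1g WT became 3 with all libraries, and 1 in HP1g KO became 2 without the fold threshold, 5 with DESeq2, 2 without the filter and 4 with all libraries. With 1 library left out the count ran from 1 to 6 for Treg in HP1a WT, and from naive cells to Tconv from 2 to 3 in HP1a WT, 3 to 6 in HP1a KO, 3 to 5 in HP1g WT and 0 to 6 in HP1g KO. In the other 12 comparisons it was 0 in every such fit. The causes were not tested.

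Log2 fold changes that were not called turned in direction with 1 library left out or under another alternative, the classical chains included. Of the 114 turns under all alternatives, 97 were in comparisons of the HP1g line, its interaction included, or in the line difference. H2-Ab1 went from 0.07 to -1.47 in HP1g Tconv with Treg (KO against WT) without KO replicate 2. H2-DMa ran from -0.15 to 0.048 in HP1a Tconv (KO against WT), from -0.12 to 0.074 for Treg in HP1a KO, and from naive cells to Tconv from -0.078 to 0.14 in HP1a KO and -0.28 to 0.19 in HP1g WT. H2-DMb1 ran from -0.42 to 0.44 in naive HP1g cells (KO against WT) and from -0.065 to 1.012 for Treg in HP1a KO, and Ciita from -0.15 to 1.04 between naive cells and Tconv in HP1a WT. Of 1554 fold changes of the 7 genes under all alternatives, 1373 kept direction and side of the threshold, 44 lost a call, 23 gained one and 114 turned in direction, 0 of them called in either fit.

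Counts over all genes depended on the tool, and DESeq2 was the one the authors used. edgeR and DESeq2 called 0 and 15 genes in naive HP1a cells (KO against WT), 16 and 201 in HP1a Tconv, 20 and 713 in HP1a Tconv with Treg, 1 and 38 in naive HP1g cells, 7 and 264 in HP1g Tconv and 0 and 605 in HP1g Tconv with Treg. For Treg they called 932 and 1755 in HP1a WT, 71 and 431 in HP1a KO, 2 and 57 in HP1g WT and 0 and 264 in HP1g KO. The interactions gave 24 and 357 (HP1a) and 0 and 15 (HP1g), and the line difference 506 and 1448, or 12 with the left-out library put back. With all libraries in 1 fit, HP1a Tconv with Treg gave 647 and HP1g Tconv with Treg 307. Outside the 2 comparisons with paired numbers the replicate block changed the number of the 7 genes called only for Treg in HP1a WT. Groups of 2 or 3 libraries, and levels of H2-Aa, H2-Ab1, H2-Eb1 and Ciita that spread over more than 10-fold in some groups, limit what these tests can resolve.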
